A study of Mus musculus with 6 samples.

Results

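Photoreceptor precursors of the mouse retina are directed by a small set of transcription factors, and 10 of their genes were followed here in retinal explants with and without Sall3, which encodes a zinc finger factor of the Spalt family. The set comprised Otx2, Crx, Nrl, Neurod1, Prdm1, Rorb, Nr2f1, Nr2f2, Esrrb and Samd7. It was defined by name, as every transcript cluster (a group of probes along the exons of a putative transcript) whose annotation gave 1 of these symbols and no other. This gave 12 clusters of 100843 on the array, or of 22608 with a single symbol. Rorb and Nr2f2 each had 2 clusters and the other 8 genes had 1, and all 12 clusters passed the filter on low signal.

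The 3 knockout arrays held RNA from Sall3 knockout retinas and the 3 wild-type arrays RNA from Sall3 wild-type retinas, all labelled as strain C57BL/6 and of mixed sex. In both groups retinas were dissected at postnatal day 0 and kept for 7 days in vitro as explants on membrane filters, and each sample pooled 3 retinas on its own Affymetrix exon array. The labels do not describe the deleted part of Sall3, nor do they say that samples of a genotype had different litters or dishes. The p-values therefore describe variation among these 6 arrays, which may be technical. Explants have no blood supply, unlike the retina in the eye. Sall3 itself had a log2 signal of 6.14 ± 0.10 in knockout and 6.30 ± 0.08 in wild-type explants (SD, n = 3), a difference of -0.16 (SE 0.10; limma adjusted p = 0.877). The genotypes overlapped after quantile normalization, while as deposited the knockout arrays, at 6.08 to 6.20, were all below the wild-type arrays, at 6.21 to 6.34. Where its probes lie relative to the deletion is not known.

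By way of background, the homeodomain factor Otx2 commits precursors to photoreceptor or bipolar fate and switches on Crx, a related factor that drives most photoreceptor genes. The leucine zipper factor Nrl then directs precursors to become rods, and without it they develop as cones rich in short-wavelength opsin. Nuclear receptors refine these choices, Rorb in rod formation and opsin expression and the pair Nr2f1 and Nr2f2 in the dorsoventral pattern of cone opsins.

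Across the 10 genes the only one whose knockout and wild-type arrays lay far apart was Esrrb, at 1.32-fold lower signal in knockout. The 9 others differed by between -0.13 and 0.11 on the log2 scale, 7 of them lower in knockout, with a median of -0.09. None of the 10 passed the threshold (limma adjusted p of 0.05 over 75632 clusters), as was so for every cluster tested, the background being 0% of clusters called. At an unadjusted p under 0.05 in limma, 1 member was lower and 0 were higher, against 1.05% of 17468 gene rows lower and 0.544% higher (3.25% and 3.32% of all clusters). A gene row is the brightest cluster of each gene. The median of the 10 members was -0.09 and that of all gene rows -0.01, with 54.7% of all gene rows lower in knockout (53.0% of all clusters). The first median was -0.02 without knockout 2 and -0.06 without wild-type 3.

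**Figure D1:**
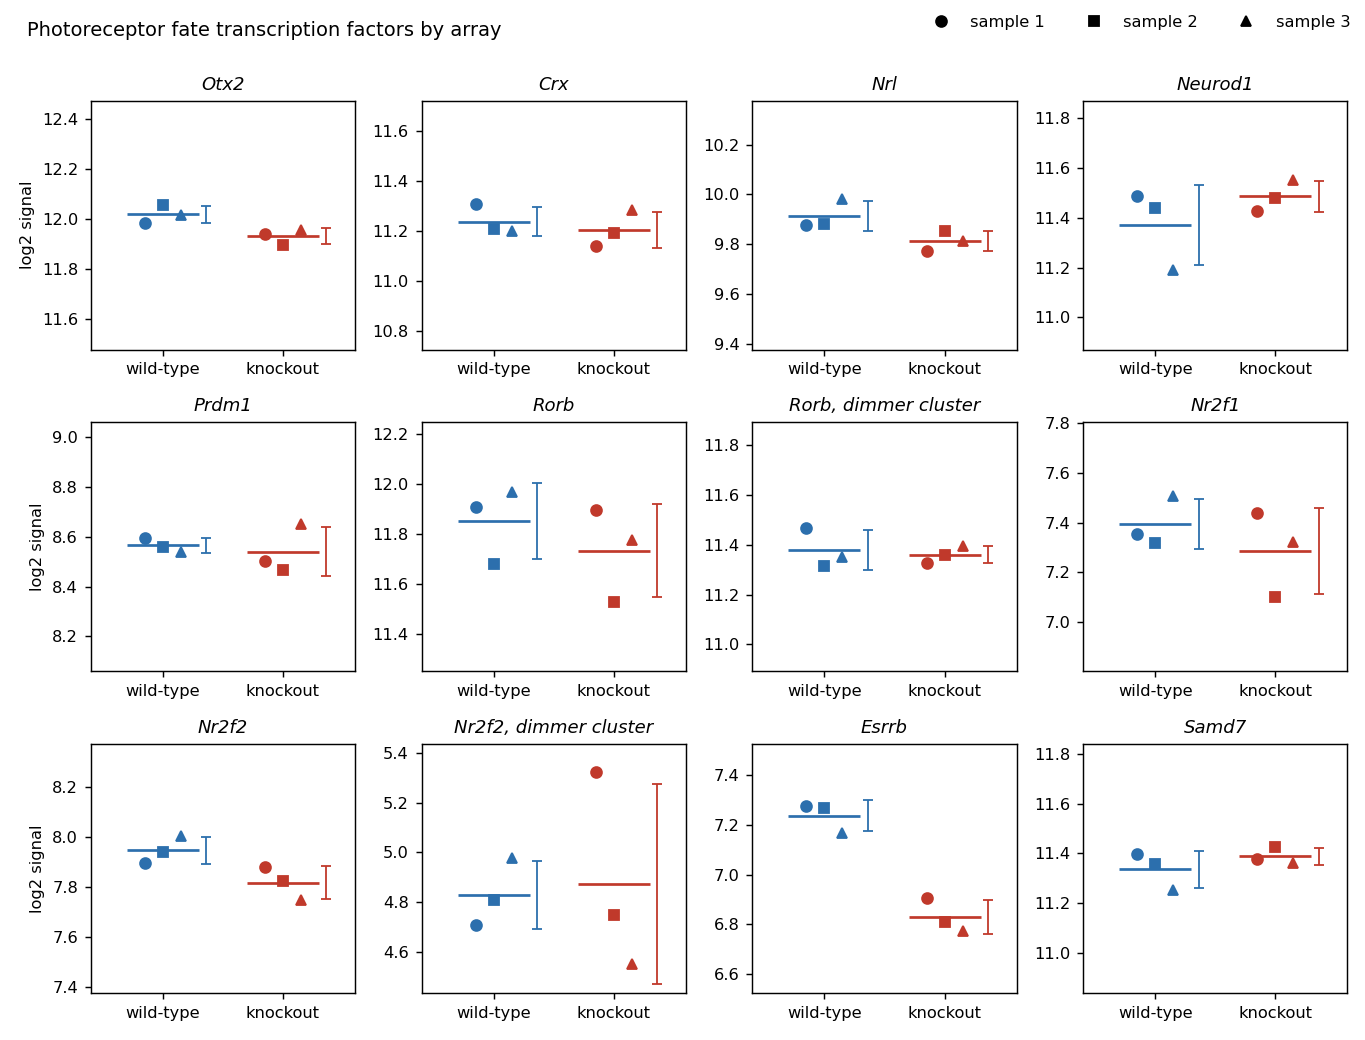
Log2 signal of each of the 12 clusters in each array, wild-type in blue and knockout in red, with the sample numbers as symbols. Horizontal lines are group means, bars beside them are ± 1 SD (n = 3), and every panel spans 1 log2 unit. The Esrrb panel shows 3 knockout arrays at 6.77 to 6.91 below 3 wild-type arrays at 7.17 to 7.28, while most other panels overlap.

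Esrrb encodes an orphan nuclear receptor of the estrogen-related family that rods express and that supports their survival. Its log2 signal was 6.91, 6.81 and 6.77 in knockout 1, 2 and 3, against 7.28, 7.27 and 7.17 in wild-type 1, 2 and 3. The groups did not overlap, and the gap between them was wider than the range within either. The knockout mean was 6.83 ± 0.07 and the wild-type mean 7.24 ± 0.06 (SD, n = 3). The difference of -0.41 (SE 0.09, 95% interval -0.64 to -0.17) is a change in signal of -24.5%, with limits of -35.8% and -11.2%. It did not pass over all clusters (limma unadjusted p = 0.00551, adjusted p = 0.606; exact permutation p = 0.1, two-sided, the smallest that 3 against 3 arrays allow). Among the gene rows this p ranked 44 of 17468.

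With 1 row per gene the SE of Esrrb was 0.059 and its limma unadjusted p = 0.00044, rank 19 of 17468, with an adjusted p = 0.396; in that fit 3.4% of gene rows were lower and 1.05% higher at an unadjusted p under 0.05. The value was -0.37 with the signals as deposited, and between -0.44 and -0.38 with any 1 array left out. Its adjusted p ranged from 0.339 to 0.814 over all alternatives. Set against the median of the other 9 members in the same array, Esrrb was lower by 0.38 in knockout, or by 0.36 with the values as deposited. That comparison was chosen after its value was seen and has no test. In bulk RNA, fewer cells of a type and less RNA per cell cannot be told apart.

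The reference table held a pair of Esrrb start sites, and the 250 bases upstream of each are shown because this gene had the largest difference of the set. All promoter sequences are from RefSeq on build GRCm38.p6, whereas the processing notes name mm8, and 16 windows were found for the 10 members. Capitals mark TAATCC on either strand, the letters that Otx2 and Crx bind, and AGGTCA on either strand, a half-site shared by nuclear receptors such as Rorb, Nr2f1, Nr2f2 and Esrrb. Neither run of letters occurs in these 2 windows, at chr12:86360867-86361116 and chr12:86421394-86421643 on the plus strand.
Esrrb upstream start: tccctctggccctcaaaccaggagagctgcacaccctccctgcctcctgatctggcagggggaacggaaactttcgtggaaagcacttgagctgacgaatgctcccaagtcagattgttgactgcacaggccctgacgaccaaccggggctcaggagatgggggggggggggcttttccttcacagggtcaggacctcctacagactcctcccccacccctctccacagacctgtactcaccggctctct
Esrrb downstream start: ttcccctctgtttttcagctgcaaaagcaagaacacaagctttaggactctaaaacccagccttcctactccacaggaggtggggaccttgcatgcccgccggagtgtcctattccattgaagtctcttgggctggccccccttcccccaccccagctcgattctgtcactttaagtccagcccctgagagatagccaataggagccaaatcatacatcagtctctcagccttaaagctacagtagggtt

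Otx2, at the head of the hierarchy, had signals of 11.94, 11.90 and 11.96 in knockout 1, 2 and 3, against 11.99, 12.06 and 12.02 in wild-type 1, 2 and 3. The highest knockout array was just under the lowest wild-type array, and this also held with the values as deposited. The difference was -0.09 (SE 0.09, 95% interval -0.30 to 0.13; limma adjusted p = 0.934). It was -0.05 with the values as deposited, in which knockout 1 and 3 had exactly the same value. Otx2 is also a gene of bipolar cells and of the pigment epithelium, whose other markers are given further on.

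Crx, the homeodomain factor that acts after Otx2, had signals of 11.14, 11.19 and 11.28 in the knockout arrays, against 11.31, 11.21 and 11.20 in the wild-type arrays, in sample order. The groups overlapped, with knockout 3 above wild-type 2 and wild-type 3. Its difference of -0.03 (SE 0.10, 95% interval -0.27 to 0.20; limma adjusted p = 0.980) was 0.00 without wild-type 1. Its interval spans a lower signal as well as a higher one. Otx2 minus Crx, taken within each array, differed between genotypes by -0.05 (exact permutation p = 0.4, adjusted p = 0.6 over 6 such pairs).

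The Crx window and that of Samd7 are shown because each holds TAATCC, as does the Nr2f2 window and 1 of 4 Otx2 windows. In all, 4 of the 16 member windows had it, against 6.25% of 32851 windows in the table. These windows belong to 4 of 10 genes, a count without a background, since no share per gene was taken over the table. Windows 1 and 2 of Otx2, counted from upstream, share bases, so the 16 are not all separate sequence. AGGTCA occurred in 0 of 16, against 14.0% of all windows, and TGCTGA, a half-site of Maf factors such as Nrl, in 3 of 16, against 16.1%. No match overlapped another. The Crx window, at chr7:15879956-15880205 on the minus strand, has the letters at 94 and 21 bases before the start, and that of Samd7, at chr3:30746043-30746292 on the plus strand, at 139.
Crx: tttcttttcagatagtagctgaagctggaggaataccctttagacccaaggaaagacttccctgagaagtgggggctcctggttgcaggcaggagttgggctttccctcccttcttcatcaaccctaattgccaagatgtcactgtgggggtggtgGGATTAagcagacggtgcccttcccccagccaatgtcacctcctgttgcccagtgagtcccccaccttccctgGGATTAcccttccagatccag
Samd7: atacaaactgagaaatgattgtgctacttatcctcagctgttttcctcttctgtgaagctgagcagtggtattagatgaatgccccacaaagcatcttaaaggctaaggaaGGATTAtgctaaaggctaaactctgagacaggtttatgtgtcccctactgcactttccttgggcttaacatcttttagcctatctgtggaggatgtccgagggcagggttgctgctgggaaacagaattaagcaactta

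Neurod1, a basic helix-loop-helix factor of photoreceptors and amacrine cells, had the highest positive difference. Its signals were 11.43, 11.48 and 11.55 in knockout 1, 2 and 3, against 11.49, 11.44 and 11.19 in wild-type 1, 2 and 3. Knockout arrays overlapped with wild-type 1 and 2, and wild-type 3 stood apart below. The difference of 0.11 (SE 0.12, 95% interval -0.18 to 0.40; limma adjusted p = 0.938) was 0.02 without wild-type 3. Neurod1 minus Crx was 0.28 ± 0.01 in knockout and 0.13 ± 0.13 in wild-type arrays (SD, n = 3), with all knockout arrays above (exact permutation p = 0.1, adjusted p = 0.6 over the 6 pairs). That difference of 0.15 was 0.07 without wild-type 3.

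Prdm1 encodes a zinc finger repressor that holds back bipolar genes in young photoreceptors. It had 8.50, 8.47 and 8.65 in the knockout arrays, against 8.60, 8.56 and 8.54 in the wild-type arrays, and knockout 3 was the highest of all 6. Its difference was -0.02 (SE 0.10, 95% interval -0.26 to 0.22; limma adjusted p = 0.987), and 0.02 with the values as deposited, where 4 of the 6 arrays held the same number. Identical values in at least 2 arrays occurred in 54.6% of clusters with a single symbol, and how they arose is not known.

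Rorb, the retinoid-related orphan receptor of early photoreceptors, had the widest spread within genotypes of the 10 brightest clusters, with a pooled SD of 0.17 against 0.06 for its own dimmer cluster. The brighter of its clusters had 11.89, 11.53 and 11.78 in knockout 1, 2 and 3, against 11.91, 11.68 and 11.97 in wild-type 1, 2 and 3, with sample 2 the lowest of each genotype. The difference was -0.12 (SE 0.14, 95% interval -0.47 to 0.23; limma adjusted p = 0.951), and -0.02 without knockout 2. Its other cluster had signals of 11.33 to 11.40 in knockout and of 11.32 to 11.47 in wild-type arrays, a difference of -0.02 (SE 0.09), and the low value of sample 2 was not seen there in knockout.

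Nrl, the determinant of rods, had signals of 9.77, 9.85 and 9.81 in knockout 1, 2 and 3, against 9.88, 9.88 and 9.98 in wild-type 1, 2 and 3. The knockout arrays lay just below the wild-type ones after quantile normalization, but overlapped them with the values as deposited. The difference of -0.10 (SE 0.09, 95% interval -0.32 to 0.12; limma adjusted p = 0.928) was -0.07 without wild-type 3. Nrl minus Crx differed between genotypes by -0.07 (exact permutation p = 0.4) and Nrl minus Rorb by 0.02 (exact permutation p = 0.9).

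Samd7 encodes a Polycomb-associated protein that silences non-rod genes, the short-wavelength opsin among them, in mouse rods. Its signals were 11.38, 11.43 and 11.36 in the knockout arrays, against 11.40, 11.36 and 11.25 in the wild-type arrays, with overlapping groups. The difference was 0.05 (SE 0.09, 95% interval -0.18 to 0.28; limma adjusted p = 0.966), and 0.01 without wild-type 3. Samd7 minus Crx differed by 0.08 (exact permutation p = 0.3).

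**Figure D2:**
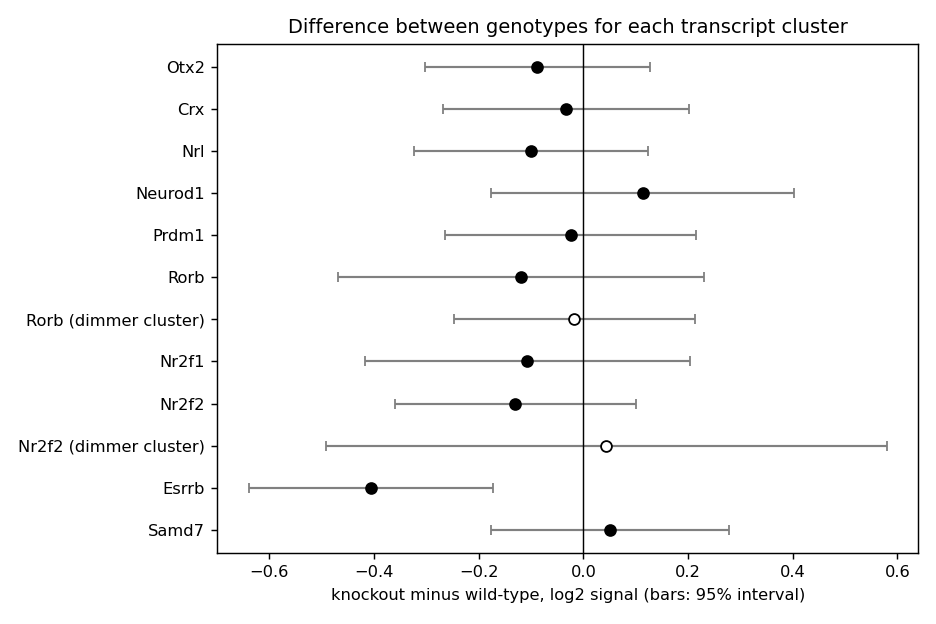
Difference between knockout and wild-type in log2 signal for each of the 12 clusters, with the 95% interval from limma. Filled points are the brightest cluster of a gene and open points the dimmer cluster of Rorb and Nr2f2. The interval of Esrrb, -0.64 to -0.17, is the only 1 of the 12 that does not cross 0.

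Nr2f1 and Nr2f2 encode a pair of closely related nuclear receptors (the COUP factors) that in the mouse retina are graded along the dorsoventral axis and restrain cone opsin genes. Nr2f1 had 7.44, 7.10 and 7.32 in knockout 1, 2 and 3, against 7.36, 7.32 and 7.51 in wild-type 1, 2 and 3. The groups overlapped and knockout 2 was the lowest array. The difference of -0.11 (SE 0.13, 95% interval -0.42 to 0.20; limma adjusted p = 0.950) was -0.01 without knockout 2.

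Nr2f2 had 7.88, 7.82 and 7.75 in knockout 1, 2 and 3, against 7.90, 7.94 and 8.003 in wild-type 1, 2 and 3 on its brighter cluster. The groups did not overlap after quantile normalization, while as deposited knockout 1 and wild-type 1 and 2 held the same value. Its difference was -0.13 (SE 0.09, 95% interval -0.36 to 0.10; limma adjusted p = 0.898), and -0.09 as deposited. The dimmer cluster had signals of 5.32, 4.75 and 4.55 in knockout, against 4.71, 4.81 and 4.98 in wild-type arrays, with knockout 1 the highest and knockout 3 the lowest of all, and stood at 0.04 (SE 0.22, 95% interval -0.49 to 0.58). It was -0.18 without knockout 1. The balance of the pair, Nr2f1 minus Nr2f2 within each array, differed between genotypes by 0.02 (exact permutation p = 0.9).

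**Figure D3:**
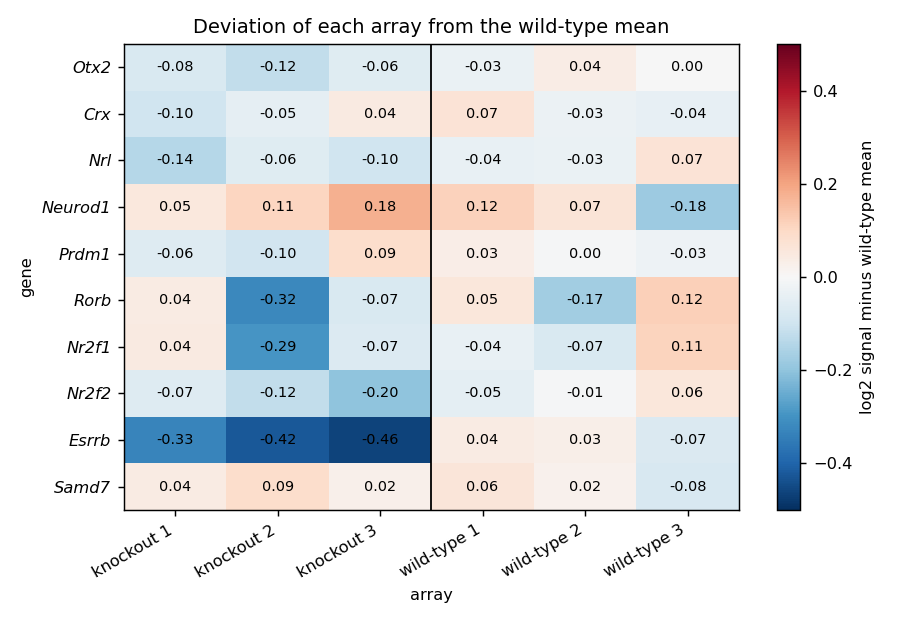
Each cell gives the log2 signal of a member (row, brightest cluster) in an array (column) minus the mean of the 3 wild-type arrays, red above and blue below. Esrrb is at -0.33, -0.42 and -0.46 in the knockout arrays, and Rorb and Nr2f1 are both lowest in knockout 2, at -0.32 and -0.29.

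Array by array, knockout 2 had the lowest signal of all 6 arrays in 4 of the 10 genes, and wild-type 3 the highest in 4. Knockout 1 and wild-type 3 were the extremes of the first principal component over all clusters, at -98.5 and 62.5, with the other 4 arrays at 2.87 to 11.9. Without these 2 arrays Esrrb was at -0.48 and Neurod1 at 0.05. After quantile normalization the groups did not overlap in 4 members (Otx2, Nrl, Nr2f2 and Esrrb), each lower in knockout, and 0 were higher in this way, where all gene rows gave 11.2% below and 1.7% above (7.62% and 4.63% of clusters). As deposited these were 2 members (Otx2 and Esrrb), against 3.75% below and 4.6% above over all genes, and after median centring 2 (Nrl and Esrrb), against 5.36% and 2.44%. Esrrb was the member that did so under all 3 scalings.

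Likeness between expression profiles was described by Pearson's r over the 6 arrays, with no test, since these arrays share 2 genotypes and 345 or more genes exceeded an r of 0.9 with each of Otx2, Nrl and Nr2f2. The gene rows most like Esrrb were Disp3 and Pcsk6, both at r = 0.996, among 264 gene rows that exceeded an r of 0.9 with it. Within the set, Rorb and Nr2f1 were the most alike pair at r = 0.934 (Spearman's rho 0.943), both lowest in knockout 2. For Rorb this rests on the brighter cluster, since the dimmer one had 11.36 in knockout 2 and 11.33 in knockout 1. Neurod1 and Samd7 followed at r = 0.838, both lowest in wild-type 3, although their rho was 0.486. Otx2 and Esrrb stood at 0.822 and Crx and Prdm1 at 0.816.

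Other regulators of photoreceptors were taken as a list of 20 genes, of which 17 had a named cluster used here. Of these 9 were lower and 8 higher in knockout with a median of -0.01, and none passed the test. Without wild-type 3 these counts were 12 and 5. Mef2d, a MADS box factor that acts with Crx on photoreceptor genes, had the largest difference, with 10.60, 10.33 and 10.90 in knockout 1, 2 and 3, against 10.11, 10.16 and 9.82 in wild-type 1, 2 and 3. The knockout arrays all lay above the wild-type arrays, at 0.58 (SE 0.18; limma unadjusted p = 0.0194, adjusted p = 0.678). Next by p were the receptor gene Notch1 at -0.18 (SE 0.10), the dorsal T-box gene Tbx2 at -0.14 (SE 0.09) and the progenitor factor Olig2 at -0.08 (SE 0.09). The cone nuclear receptors Thrb and Rxrg stood at 0.01 and 0.04, Rora at -0.04, Rax at -0.01, Casz1 at -0.10 and Pias3 at -0.03. Mef2c stood at 0.31 (SE 0.35), and Lhx4, Fiz1, Prdm8, Neurog2, Atoh7 and Ikzf1 lay between -0.04 and 0.05. Nr2e3, the partner of Nrl in rods, was not analysed here.

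Close relatives of the members, named after the members' values had been seen and given as values only, were 9 genes measured of 11. The relatives of Esrrb, Esrra and Esrrg, stood at -0.07 (SE 0.09) and -0.05 (SE 0.09), Otx1 at -0.02, and Nr2f6, the third COUP-type gene, at -0.09. Neurod4 stood at 0.28 (SE 0.24) with wild-type 3 at 10.48 and the other arrays between 11.14 and 11.48. Maf stood at -0.04, Neurod2 at -0.03 and Neurod6 at 0.03.

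The genes that these factors control were read as lists. Of 13 rod genes measured (of 15), 3 were lower and 10 higher in knockout with a median of 0.04, and none passed. Without wild-type 3 there were 6 lower and 7 higher, with a median of 0.01. The rod transducin subunit Gngt1 stood at 0.58 (SE 0.26) and the channel subunit Cnga1 at 0.49 (SE 0.34), both with overlapping groups; Gngt1 was at 0.35 without knockout 1 and Cnga1 at 0.28 without wild-type 3. Pde6g, the inhibitory subunit of the rod phosphodiesterase, was at 0.12 and the rod arrestin Sag at 0.06. Taking each rod gene less its wild-type mean, the median over the list was -0.01, 0.01 and 0.07 for knockout 1, 2 and 3, and -0.02, 0.03 and -0.02 for wild-type 1, 2 and 3. Esrrb, itself a rod gene, was at -0.33 to -0.46 in the same knockout arrays. The part of rod cell number in its value was not tested.

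Of 14 genes shared by rods and cones, 4 were lower and 10 higher, with a median of 0.03 (0.00 without wild-type 3) and none past the threshold. Guca1a, a calcium-dependent activator of guanylate cyclase, stood at -0.47 (SE 0.12) with no overlap between genotypes, and the retinal lipid transporter Abca4 at -0.15 (SE 0.09), also without overlap. The photoreceptor axoneme gene Rp1 stood at 0.18 (SE 0.13) and the matrix proteoglycan gene Impg2 at 0.10 (SE 0.10), the latter with all knockout arrays above the wild-type arrays. Of 15 cone genes, 11 were lower and 4 higher, with a median of -0.20 and none past the threshold. The short-wavelength opsin gene Opn1sw, which Crx and Rorb activate and which Nr2f and Samd7 proteins restrain, stood at -2.35 (SE 0.37, unadjusted p = 0.000765 in limma), and the cone phosphodiesterase subunit Pde6c at -1.08 (SE 0.14). The cone arrestin Arr3 was at -0.51 (SE 0.13) and the cone channel subunit Cnga3 at -0.25 (SE 0.09). On their brightest clusters, the 9 members other than Esrrb had 95% intervals that stayed between -0.47 and 0.40. With 1 row per gene these intervals were narrower, between -0.41 (Rorb) and 0.33 (Neurod1), and each still crossed 0. The SE of Otx2, for example, was 0.046 there against 0.087 over all clusters. The smallest limma unadjusted p of the 9 in that fit was 0.0633 for Nr2f2 (adjusted p = 0.924), against 0.216 over all clusters.

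**Figure D4:**
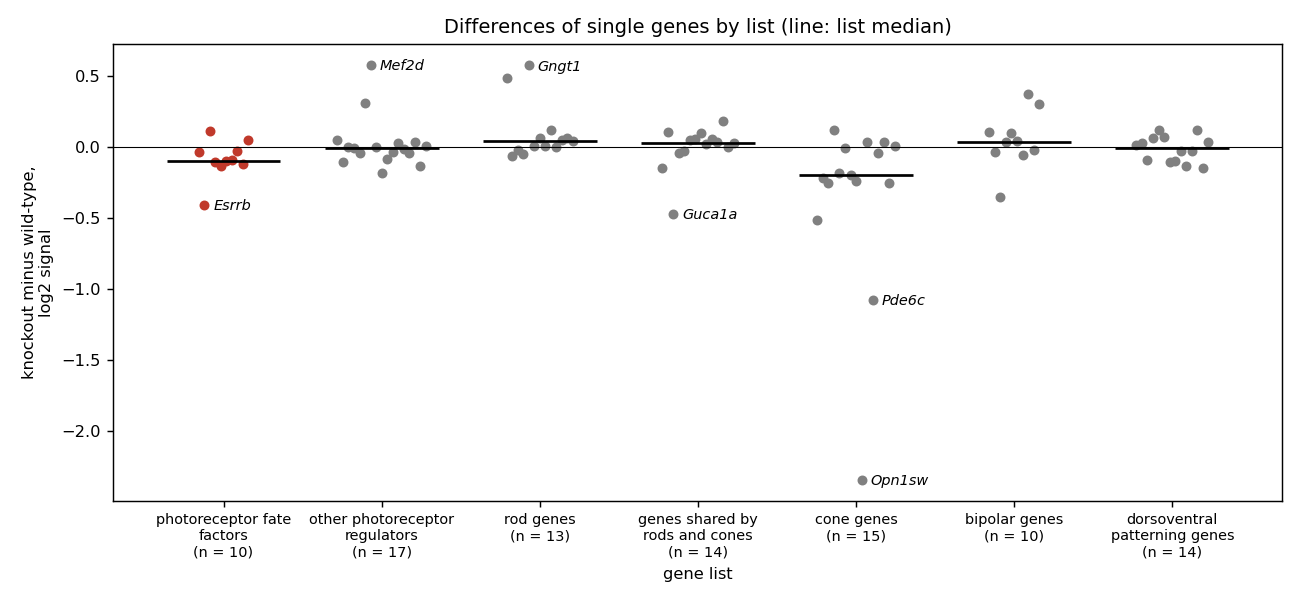
Difference between knockout and wild-type in log2 signal for each measured gene of 7 lists, with the list median as a black line and the 10 photoreceptor fate factors in red. Esrrb at -0.41 and Opn1sw at -2.35 lie below the other genes of their lists, while the medians of the 7 lists lie between -0.20 and 0.04.

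Genes of other cells that express members of the set were set beside them. For bipolar cells, which share Otx2 and Crx, 10 of 12 genes were measured, with a median of 0.04, and knockout 1 stood at 0.23 relative to the wild-type mean against 0.00 and -0.05 in knockout 2 and 3. Grik1 stood at -0.35 (SE 0.16), Tacr3 at 0.37 (SE 0.19) and Vsx1, a bipolar homeodomain gene, at 0.30 (SE 0.19), while Isl1 was at 0.10 (SE 0.13). Without knockout 1 the bipolar median was -0.04, Tacr3 was at 0.18 and Vsx1 at 0.17; Vsx1 was at 0.15 without wild-type 3 and at 0.01 without both. For the pigment epithelium, 8 of 10 genes were measured, Otx2 included, with a median of -0.05, and its defining genes Rpe65 and Tyr lay under the level filter. Endothelial and pericyte genes, Nr2f2 included, had a median of -0.04 over 10, and Müller glia and astrocyte genes one of 0.01 over 9.

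The microglia, macrophage and lymphoid list had a median of -0.15 over 9 genes, 8 of them lower, with 0.10 in knockout 1 against -0.19 and -0.22 in knockout 2 and 3. The list median was -0.04 without knockout 2. In Esrrb, Nr2f2, Nr2f1 and Rorb as well knockout 1 was the highest of the 3 knockout arrays, and in Esrrb and Nr2f2 the order of the knockout arrays was that of this list. That order was not particular to this list. It also held for the medians of the cone, bipolar, glial, endothelial and ganglion cell lists and of the genes shared by rods and cones. It did not hold in the remaining lists, such as the rod and horizontal cell lists. Any part of microglia, macrophages or lymphoid cells in the members' values was not tested. Horizontal cell genes, where Rorb is also expressed, had a median of -0.23 over 12 with 11 lower, amacrine genes 0.02 over 10, retinal ganglion cell genes -0.07 over 9 and progenitor and proliferation genes 0.07 over 9. Without knockout 1 the amacrine, glial and progenitor medians were -0.02, -0.04 and -0.04. By the smallest p of each list, the horizontal cell gene Lhx1 stood at -0.77 (SE 0.11), the ganglion cell gene Nefm at -0.41 (SE 0.12), the amacrine gene Gad2 at 0.34 (SE 0.13) and the lymphoid gene Cd79a at -0.29 (SE 0.13). Of the dorsoventral patterning genes, which share the axis of Nr2f1 and Nr2f2, 7 were lower and 7 higher of 14 measured, with a median of 0.00 and a range of -0.15 to 0.12. That even split depended on single arrays, in both directions. Without knockout 1, 12 were lower and 2 higher, with a median of -0.07, while without knockout 2, 5 were lower and 9 higher. The median was 0.02 without wild-type 2. Without knockout 1 and wild-type 3 together 14 were lower and 0 higher, with a median of -0.10. Those with the smallest p were Tbx2 at -0.14, Vax1 at -0.15, Efnb1 at -0.10 and Efnb2 at -0.10, and none of the 14 had an unadjusted p under 0.05.

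**Figure D5:**
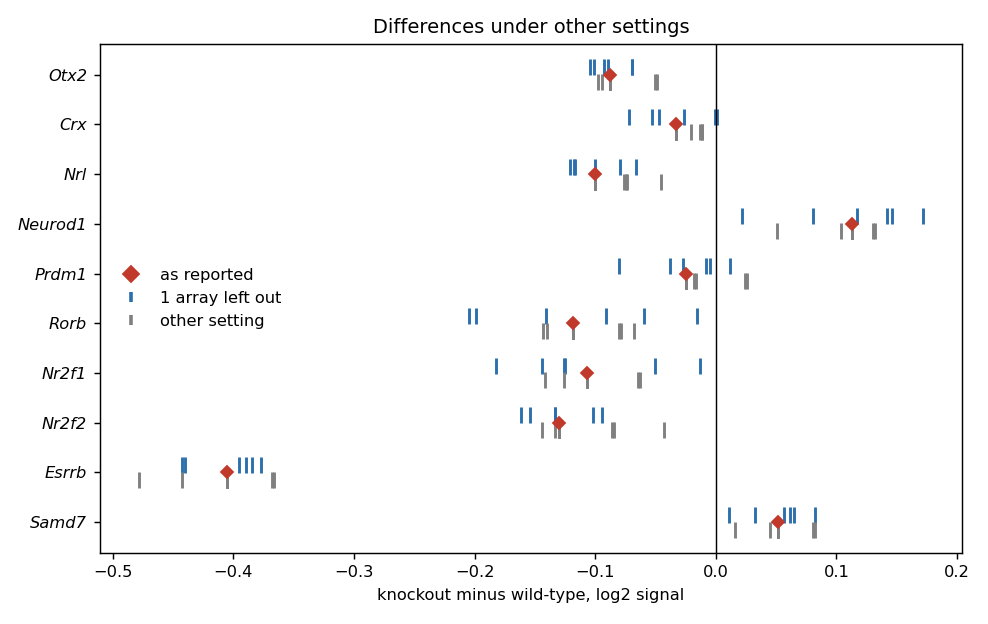
Difference between knockout and wild-type in log2 signal for each member as reported (red diamonds), with 1 array left out (blue ticks) and under the other settings (grey ticks). All values of Esrrb lie between -0.48 and -0.37, while those of Crx and Prdm1 cross 0.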

How the data were processed

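The authors deposited 1 log2 value per transcript cluster and array; the log2 scale was read from the range, 1.48 to 13.86. Per the submitters' processing notes, Affymetrix Expression Console, PLIER and mm8 were used, with no version or role stated. How arrays were scaled or background was corrected is not stated in the sources used here. Any background signal left in the values would make differences smaller, and whether any was left was not tested. For arrays, their number limits the precision, here 3 per group with 4 residual degrees of freedom. Column medians ran from 4.97 to 5.07, and values were quantile normalized. Clusters were kept where their mean reached the 25th percentile (3.70), which left 75632 clusters and 17468 genes. A table of the platform annotation gave 22608 clusters 1 symbol, 1462 several and 76773 none; 22101 took their symbol from RefSeq (GRCm38) through the gene identifier. The brightest kept cluster stands for a gene.

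Knockout was compared with wild-type in limma 3.58.1 (R 4.3.3; lmFit, eBayes, two-sided, Benjamini-Hochberg over all kept clusters, threshold 0.05). All unadjusted and adjusted p-values not called exact are from limma. SE and intervals are moderated. The fit was tested on data simulated with independent normal noise and with variances drawn as the fit assumes. Estimates were accurate there, as were the intervals of unchanged clusters. Such data check the calculation and cannot show that the intervals of the real arrays are accurate. Whether differences as small as those of the members would be called was not tested. Promoter motifs were counted on both strands. Figures used matplotlib 3.10.9. The members, lists, tests and the rule for naming genes (all members, all genes of the other regulators, up to 4 genes with the smallest p of each other list) were chosen with earlier results of these data known. Alternatives were values as deposited, median centring, no filter or the 50th percentile, intensity trend, robust variances, array weights, a replicate block on the sample number, 1 row per gene (brightest or mean) and each array left out; leaving out knockout 1 and wild-type 3 together was added after seeing the data. No set test was run.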

Additional observations from a re-analysis of the deposited data

How the results depend on the processing

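Over 17 alternatives for each of the 10 members, 166 of 170 values kept their direction and 0 passed the threshold. The count of clusters past it in limma was 0 under every alternative. Part of that agreement was fixed in advance. Either filter, the intensity trend, robust variances, the replicate block and the brightest row per gene change the p-values but leave each difference as it was. The mean of a gene's clusters could move only Rorb and Nr2f2. The 4 reversals came from other scalings or from leaving out an array. At an unadjusted p under 0.05 there were 2458 clusters lower and 2511 higher. Prdm1 changed sign with the values as deposited (0.025) and after median centring (0.026), as did the dimmer Rorb cluster (0.011 and 0.013). The dimmer Nr2f2 cluster was -0.092 with array weights and -0.11 without knockout 1 and wild-type 3, where Casz1 was at 0.019. The median of the members was -0.057 with the values as deposited, -0.056 after median centring and -0.055 with the mean of a gene's clusters. These causes were not tested. Of the gene rows at an unadjusted p under 0.05, the share lower was 65.9% with quantile normalization, 52.4% with the deposited values and 57.7% with median centring.

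With 1 array left out, the values ranged from -0.10 to -0.07 for Otx2, -0.072 to 0.0013 for Crx (the latter without wild-type 1), -0.12 to -0.07 for Nrl, 0.02 to 0.17 for Neurod1, -0.080 to 0.012 for Prdm1 (the latter without knockout 2), -0.20 to -0.02 for Rorb, -0.18 to -0.01 for Nr2f1, -0.16 to -0.09 for Nr2f2, -0.44 to -0.38 for Esrrb and 0.01 to 0.08 for Samd7. The dimmer clusters ranged from -0.048 to 0.028 for Rorb and -0.18 to 0.20 for Nr2f2, the median of the members from -0.098 to -0.021, and the number of members lower from 7 to 8. Within an array, Nrl minus Rorb ranged from -0.10 to 0.12 and Nr2f1 minus Nr2f2 from -0.03 to 0.12, so both changed sign.

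The sample numbers were not used as pairs, because the labels do not say that they mark a litter or day. Deviations of same-numbered arrays from their group means correlated at 0.13, -0.15 and 0.21 for samples 1, 2 and 3 over the gene rows. Arrays with different numbers ranged from -0.28 to 0.23. With the sample number as a replicate block, Esrrb stood at -0.41 (limma adjusted p = 0.740) and 0 clusters passed, so no call changed.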
